A study of Homo sapiens with 10 samples.

Results

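The genes described here are 9 genes of MHC class I antigen presentation, the pathway by which a cell displays peptides from its own proteins to cytotoxic T cells: B2M, HLA-B, HLA-C, HLA-E, TAP1, TAP2, TAPBP, PSMB8 and PSMB9. They were taken from a fixed list of gene symbols, and all 9 were found among the 19821 protein-coding genes on chromosomes 1 to 22 and X of the RefSeq annotation of GRCh38. The data are CUT&Tag peak lists from wild-type HCT116 cells, a line established from a human colorectal carcinoma, with no treatment named in the labels. In CUT&Tag an antibody brings a fused transposase to a chromatin protein, and the enzyme tags the DNA beside it. Antibodies were against H3K4me3 (1 sample), a histone mark of promoters, H3K9me3 (3 samples), a mark of heterochromatin, POLR1A (3 samples), the largest subunit of RNA polymerase I, and POLR2A (3 samples), the largest subunit of RNA polymerase II. Each target had 1 peak list, so values here have no replicate error and no difference between targets was tested.

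In the class I pathway the proteasome cuts proteins into peptides, and PSMB8 and PSMB9 encode catalytic subunits of its interferon-inducible form, the immunoproteasome. TAP1 and TAP2 form the transporter that carries peptides into the endoplasmic reticulum, and TAPBP encodes tapasin, which holds empty class I molecules beside that transporter. HLA-B, HLA-C and HLA-E encode heavy chains, each of which pairs with the light chain beta-2-microglobulin, the product of B2M. The genes are transcribed in most nucleated cells and rise with interferon gamma, through promoters with sites for IRF, NF-kappaB and RFX, CREB and NF-Y family factors.

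Promoter windows of 5 genes are shown. The H3K4me3 peak at B2M is placed relative to its window, and the windows of HLA-B and HLA-C are alike. Those of TAP1 and TAPBP carry the same repeated pattern as B2M. RefSeq windows of GRCh38.p14, from 250 bases before to 50 bases after a start site, were found for 8 of the 9 genes, all but HLA-E. Below, capitals mark matches on either strand to CCAAT (the NF-Y box), TGACG (the core of a CREB site), GAAA followed by any 2 bases and GAAA (an IRF pattern), GGGCGG (a GC box) and TATAAA. They are windows of the plus strand for B2M (chr15:44711267-44711566), and of the minus strand for HLA-B (chr6:31357130-31357429), HLA-C (chr6:31272043-31272342), TAP1 (chr6:32853655-32853954) and TAPBP (chr6:33314029-33314328).
B2M: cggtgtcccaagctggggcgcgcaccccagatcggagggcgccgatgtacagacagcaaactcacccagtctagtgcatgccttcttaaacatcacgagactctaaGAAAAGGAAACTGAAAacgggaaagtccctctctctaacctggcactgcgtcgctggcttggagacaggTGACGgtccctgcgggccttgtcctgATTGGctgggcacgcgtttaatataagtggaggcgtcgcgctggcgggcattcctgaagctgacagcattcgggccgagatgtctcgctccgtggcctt
HLA-B: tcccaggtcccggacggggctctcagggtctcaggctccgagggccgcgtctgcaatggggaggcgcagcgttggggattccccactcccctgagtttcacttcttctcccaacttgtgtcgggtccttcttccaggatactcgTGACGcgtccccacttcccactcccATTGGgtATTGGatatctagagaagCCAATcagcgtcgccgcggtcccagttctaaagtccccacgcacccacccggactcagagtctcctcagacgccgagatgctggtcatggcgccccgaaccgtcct
HLA-C: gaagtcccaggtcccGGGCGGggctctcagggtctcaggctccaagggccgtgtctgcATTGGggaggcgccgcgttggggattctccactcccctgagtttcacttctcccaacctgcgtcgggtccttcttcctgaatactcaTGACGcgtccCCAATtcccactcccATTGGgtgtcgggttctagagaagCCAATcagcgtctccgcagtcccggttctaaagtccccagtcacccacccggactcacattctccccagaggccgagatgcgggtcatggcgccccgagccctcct
TAP1: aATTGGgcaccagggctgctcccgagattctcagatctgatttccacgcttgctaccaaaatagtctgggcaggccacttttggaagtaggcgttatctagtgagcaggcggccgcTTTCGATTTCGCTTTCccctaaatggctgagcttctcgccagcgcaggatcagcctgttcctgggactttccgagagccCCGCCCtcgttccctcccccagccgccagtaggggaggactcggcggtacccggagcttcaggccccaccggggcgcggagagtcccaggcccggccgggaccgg
TAPBP: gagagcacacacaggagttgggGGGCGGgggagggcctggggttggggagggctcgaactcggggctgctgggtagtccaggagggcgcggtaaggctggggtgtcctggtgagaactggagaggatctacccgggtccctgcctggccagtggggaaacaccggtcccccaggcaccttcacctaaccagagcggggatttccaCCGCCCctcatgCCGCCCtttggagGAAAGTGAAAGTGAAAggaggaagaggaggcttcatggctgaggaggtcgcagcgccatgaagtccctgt

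The IRF pattern was found in windows of 5 of the 8 genes (B2M, TAP1, TAP2, TAPBP and PSMB8), and in 3.17% of the 22156 windows of protein-coding genes of the same length. In B2M, TAP1 and TAPBP it occurred as overlapping copies, which share 4 bases. B2M had them 144 and 138 bases before the start site, and TAPBP 20 and 14 bases before it. TGACG was found for 6 genes, all but TAP1 and TAPBP, against 27.9% of windows. CCAAT was found for 5 genes (B2M, HLA-B, HLA-C, TAP1 and PSMB9), against 34.6% of windows. GGGCGG was found for 6 genes against 56.3% of windows, and TATAAA in TAP2 against 9.46%. TAP1 and PSMB8 had 2 windows each, so counts of genes and shares of windows are not alike. Of the 10 windows of the 8 genes, 5 held the IRF pattern, 6 TGACG, 5 CCAAT, 8 GGGCGG and 1 TATAAA. These are matches of letters and were not set against binding data for those factors. Exact matching misses variants of a site, so a window without a match, such as those of HLA-B and HLA-C for the IRF pattern, may still hold one. The windows of HLA-B and HLA-C were alike: in a global alignment 269 positions were identical (88.5% of the columns), and the longest identical run was 25 bases. Whether reads from the HLA-B and HLA-C windows could be told apart was not tested.

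A gene was counted for a target if a peak shared at least 1 base with the window of 1 kb on each side of either gene end. Only B2M of the 9 genes had an H3K4me3 peak there, while 54.6% of all protein-coding genes did. None of the 9 had a POLR2A peak (41.3% of all genes), a POLR1A peak (11.2%) or an H3K9me3 peak (2.7%). Counting peaks anywhere in the gene body as well gave the same members, against 60.5%, 53.2%, 15.4% and 14.4% of all genes for H3K4me3, POLR2A, POLR1A and H3K9me3. The H3K4me3 peak at B2M did not overlap POLR2A, so 0 of 9 genes had both together, against 37.7% of all genes, and 1 of 9 had H3K4me3 without POLR2A at either end, against 14.9%. The 8 genes without any peak were all of those on chromosome 6, and B2M is the 1 gene on chromosome 15.

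B2M (chr15:44711517-44718145) had an H3K4me3 peak among the strongest of the list. Its fold enrichment, the authors' own linear ratio, compared only within its list, was 32.3, which was rank 4 of 17181 H3K4me3 peaks on chromosomes 1 to 22 and X. The median over the 10832 genes with an H3K4me3 peak at an end was 11.05. Its −log10 q was 129, rank 1926, so the peak stood higher by fold than by significance. The peak was 596 bp wide (chr15:44711738-44712333), and 35.2% of the peaks of the list were narrower. It began 221 bp after the B2M start site, so it did not reach the promoter window printed above, and its summit lay 604 bp after the start site, inside the gene. Of 8767 genes with H3K4me3 within 1 kb of a start site, 77.2% had a peak that covered the site, and 13.7% had peaks only downstream of it, as B2M did.

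The H3K4me3 peak of B2M also counted for PATL2, a neighbour whose end nearer to B2M is at 44711390, 348 bp before the peak. Whether that is the start or the far end of PATL2 transcription was not examined. No polymerase peak was near. The nearest POLR2A peak lay 47.7 kb before B2M, beside SPG11, with a fold enrichment of 7.28, and it overlapped an H3K4me3 peak of 14.7. On the other side the nearest POLR2A peak was 304.9 kb away beside SORD (8.90), where H3K4me3 was 18.5. The nearest POLR1A peak was 284 kb away beside CTDSPL2 (8.61), and the nearest H3K9me3 peak was 311 kb away (4.36). SPG11 and SORD thus carried H3K4me3 with POLR2A, and B2M, between them, carried H3K4me3 of higher fold enrichment alone. By −log10 q the H3K4me3 peak of B2M (129.2) was not higher than those of SPG11 (129.8) and SORD (153.6). TRIM69, the next protein-coding gene after B2M, had no peak of any list at its ends.

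H3K4me3 without POLR2A was not rare. It held for 2946 of the 10832 genes with H3K4me3 (27.2%), for 168 of the 1000 genes with the highest H3K4me3 fold enrichment (16.8%) and for 22 of the highest 100. Among genes without POLR2A, the nearest to B2M in H3K4me3 fold enrichment was PATL2, which shares its peak. The next nearest were BOLA2B and SLX1A on chromosome 16 (32.2, a log2 difference of -0.0067 from B2M), which lie in duplicated sequence and are uncertain. RRN3, which encodes an initiation factor of RNA polymerase I (30.8, log2 difference -0.07), and MKRN3, an imprinted gene on chromosome 15 (30.7, log2 difference -0.07), followed. None of the 5 had a POLR1A or H3K9me3 peak at its ends. Likeness here means the difference in log2 fold enrichment of 1 mark in 1 list.

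**Figure D1:**
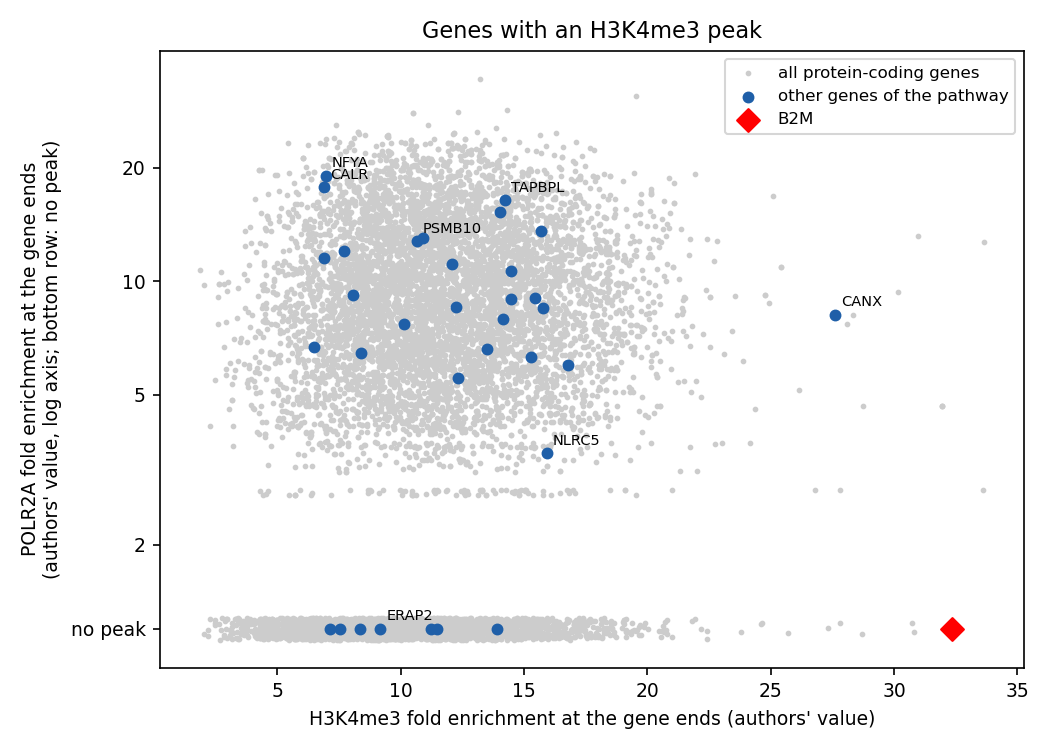
H3K4me3 fold enrichment (x axis) against POLR2A fold enrichment (y axis, log scale, with genes lacking a POLR2A peak in the bottom row) for protein-coding genes with an H3K4me3 peak at an end. B2M (red) lies at 32.3 in the bottom row, and the other genes of the pathway outside the MHC (blue) range from 6.49 to 27.6 in H3K4me3.

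The chromosome 6 genes lie in the major histocompatibility complex (MHC), where HLA-E (chr6:30489509-30494194) and TAPBP (chr6:33299694-33314078) are the outermost of the 8. HLA-C (chr6:31268749-31272092) and HLA-B (chr6:31353875-31357179) are 81.8 kb apart. TAP2 (chr6:32821831-32838739), PSMB8 (chr6:32840717-32844679), TAP1 (chr6:32845209-32853704) and PSMB9 (chr6:32854192-32859851) follow each other within 38.02 kb. TAP1 and PSMB9 point away from each other, with 487 bp between them.

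Peaks were far from all 8. For the heavy chains, the nearest H3K4me3 peak was 378 kb from HLA-B, 464 kb from HLA-C and 1241 kb from HLA-E, and the nearest POLR2A peak was 1615, 1700 and 1892 kb away. For TAP2, PSMB8, TAP1 and PSMB9 the nearest H3K4me3 peak was 566 to 587 kb away and the nearest POLR2A peak 112 to 133 kb away. TAPBP, the outermost on the centromere side, had H3K4me3 at 112 kb, H3K9me3 at 243 kb, POLR2A at 257 kb and POLR1A at 705 kb. POLR1A was farthest from HLA-C, at 2747 kb, and H3K9me3 too, at 2285 kb. Over all protein-coding genes the median distance was 0 kb for H3K4me3, 0.072 kb for POLR2A, 124 kb for POLR1A and 78.96 kb for H3K9me3. An H3K4me3 peak at least as far away as that of TAPBP, the nearest of the 8, was found for 15.9% of all genes.

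**Figure D2:**
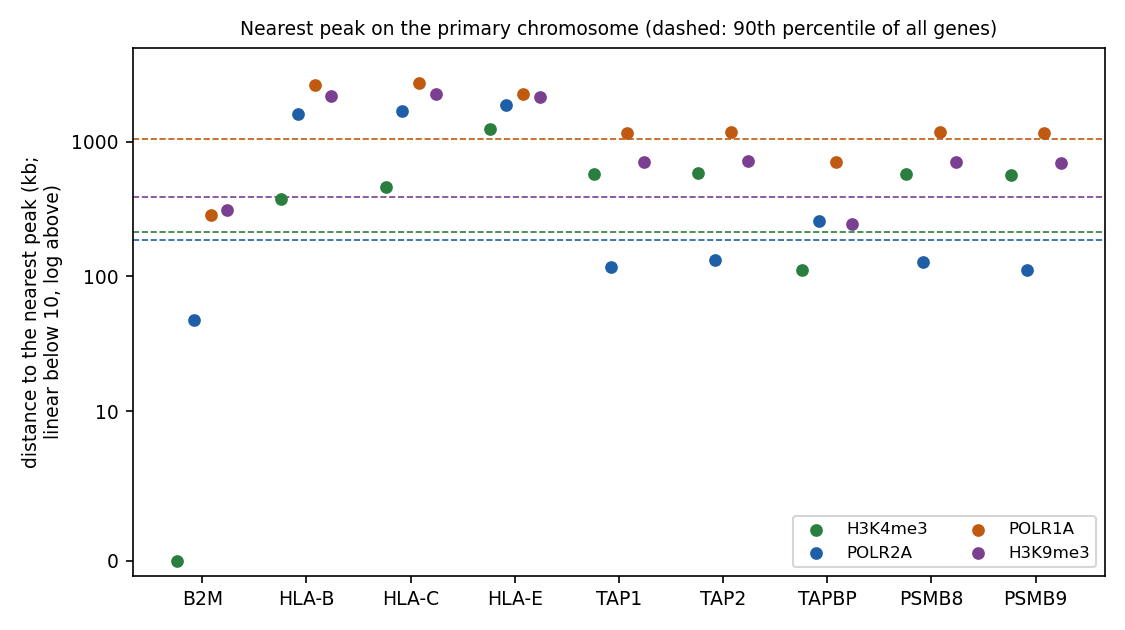
Distance from each of the 9 genes to the nearest peak of each target on its chromosome (y axis in kb, linear below 10 and log above), with the 90th percentile over all protein-coding genes as dashed lines. B2M holds the only point at 0, for H3K4me3, and the 8 genes of chromosome 6 lie at 112 kb or more for every target.

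The whole stretch around these genes was nearly free of peaks. From the start of HLA-E to the end of TAPBP, 2.82 Mb, there were 2 H3K4me3 peaks, 1 POLR2A peak, and no POLR1A or H3K9me3 peak. The same length on the HLA-E side held 29 H3K4me3 and 26 POLR2A peaks, and on the TAPBP side 44 and 49. Those on the HLA-E side all lay in its far part. The first H3K4me3 peak on that side was 2106 kb from HLA-E and the first POLR2A peak 1892 kb. The gap thus ran far past HLA-E. One H3K4me3 peak, with a fold enrichment of 8.56, lay in the body of CLIC1, an intracellular chloride channel gene. It was more than 1 kb from either end of CLIC1, but a window of 2 kb would count it. The other (11.4) was within 1 kb of no protein-coding gene. The POLR2A peak (2.80, −log10 q 1.38) lay in BRD2, a bromodomain gene, 112 kb from PSMB9. None of the 125 protein-coding genes of the stretch, members included, had a peak of any list at an end. For H3K4me3 that is 0% (exact 95% interval 0 to 2.91, counting error only), against 55.0% of the other 19696 genes. The interval treats the 125 genes as independent, but they are neighbours in a single stretch whose bounds were set by the members.

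Genes that most cells transcribe were among those without peaks. TUBB, a beta-tubulin gene, DDX39B, an RNA helicase gene, CSNK2B, a subunit of casein kinase 2, RPS18, a ribosomal protein gene, and BRD2 had no peak of any list at their ends, and were chosen as examples after their values had been seen. Walking along each chromosome, the longest row of neighbouring protein-coding genes without H3K4me3 at their ends ran from ZSCAN12 to ZBTB9 on chromosome 6 (chr6:28378821-33457544), with 174 genes that included the 8 members. It was rank 1 of 3477 such rows. The second, on chromosome 8, held 68 genes, and the third, on chromosome 11, held 66, of which 57 were olfactory receptor genes, against 14 of the 174. For POLR2A the longest row was again the one with the 8 members, with 179 genes against 74 in the second.

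Windows of the same length, none overlapping another and each starting at the first protein-coding gene start after the one before, were placed along every chromosome, and 347 that did not touch the stretch held at least 20 protein-coding genes. They had a median of 28 H3K4me3 peaks (1 to 153), 31 POLR2A peaks (2 to 120), 5 POLR1A peaks (0 to 36) and 11 H3K9me3 peaks (0 to 51), by summit. As few H3K4me3 peaks as in the stretch were found in 3 windows, and as few POLR2A peaks in none. No POLR1A peak was found in 13 windows and no H3K9me3 peak in 2, so the lack of POLR1A peaks alone is the least unusual of the 4.

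**Figure D3:**
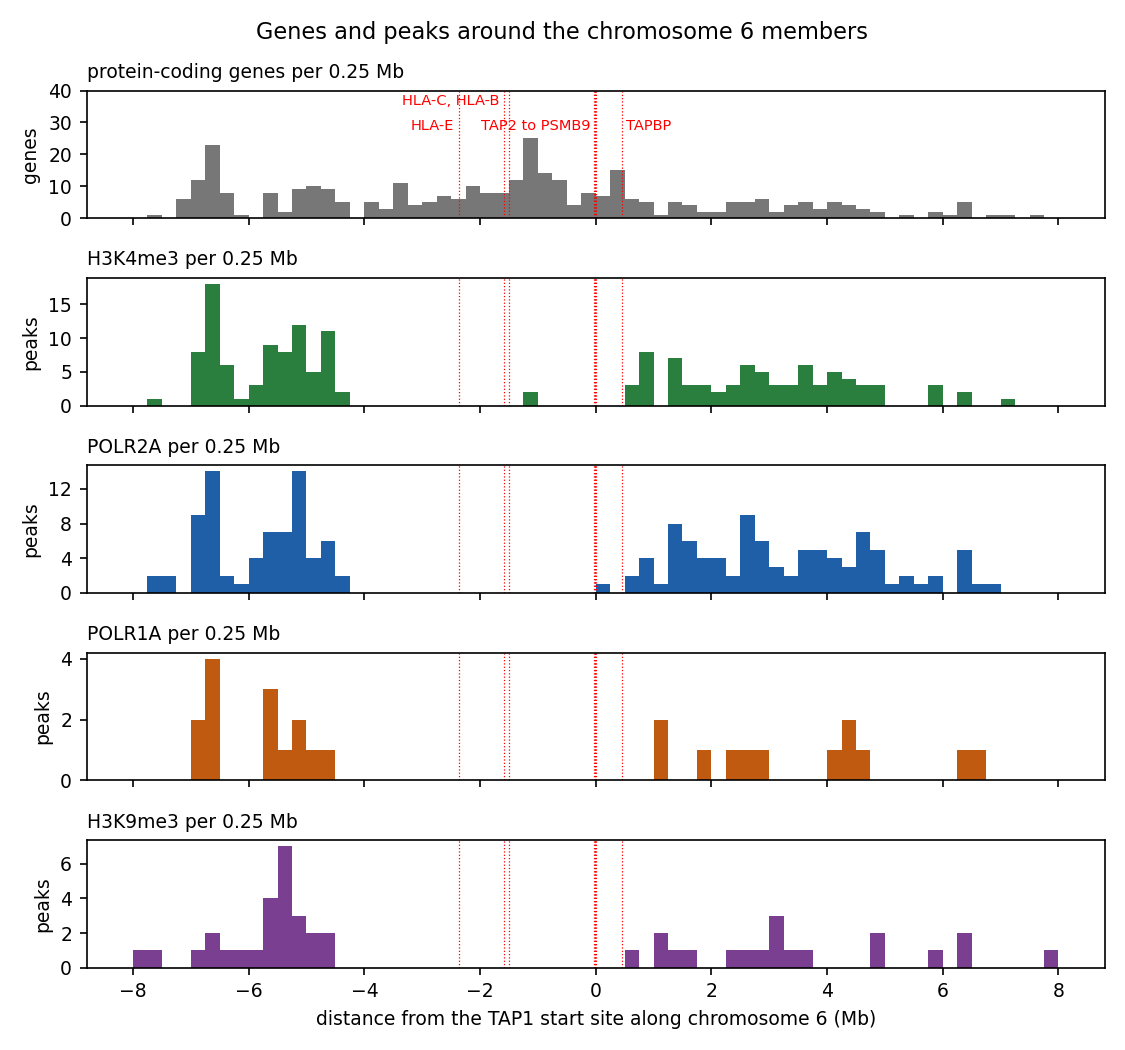
Protein-coding genes and peaks of each target per 0.25 Mb (y axes, counts) by distance from the TAP1 start site along chromosome 6 (x axis, Mb), with the starts of the 8 members as dotted lines. Gene counts stay high between HLA-E and TAPBP, where the lists hold 2 H3K4me3 peaks, 1 POLR2A peak and no others.

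Peaks were present on alternate versions of this region. The assembly holds 7 long alternate contigs of the MHC (GL000250v2 to GL000256v2), which carry other haplotypes of the same genes, and the lists give peaks on them separately from chromosome 6. They held 64 H3K4me3 peaks, 45.4% of the 141 on all alternate contigs, 16 POLR2A peaks of 109, 2 POLR1A peaks of 35 and 6 H3K9me3 peaks of 101. The contig with the most H3K4me3 peaks was GL000255v2 with 19, followed by GL000251v2 with 18 and GL000254v2 with 10, while GL000250v2 had none and 1 POLR2A peak. Their median H3K4me3 fold enrichment was 9.496, against 9.03 over chromosomes 1 to 22 and X, and their median width was 394 bp against 802 bp. The highest values were 30.4 on GL000251v2 (3566176 to 3566759), 29.9 on the same contig (3213455 to 3213944) and 28.6 on GL000254v2 (4725088 to 4725577).

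Polymerase peaks on these contigs were mostly weak. The median POLR2A fold enrichment was 2.80, the lowest value among them, against 5.47 over chromosomes 1 to 22 and X, and 5 of the 16 reached a −log10 q of 5. Of the 16, 9 overlapped an H3K4me3 peak and 1 a POLR1A peak. That site, on GL000251v2 (3616284 to 3616696), had a POLR2A fold enrichment of 23.9, H3K4me3 of 16.1 and POLR1A of 8.36. The other POLR1A peak, on GL000255v2 (5.10), overlapped H3K4me3 (6.31) without POLR2A. None of the 6 H3K9me3 peaks, with fold enrichments of 3.66 to 6.66, overlapped another list. The RefSeq table names no contig for a gene, so these peaks could not be given to HLA-B, TAP1 or any other gene. No source used here says how reads that fit both chromosome 6 and a contig were placed, and the part of this in the missing peaks was not tested. The 8 genes are therefore without a called peak on chromosome 6, which does not show that they lack the marks or the polymerases.

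**Figure D4:**
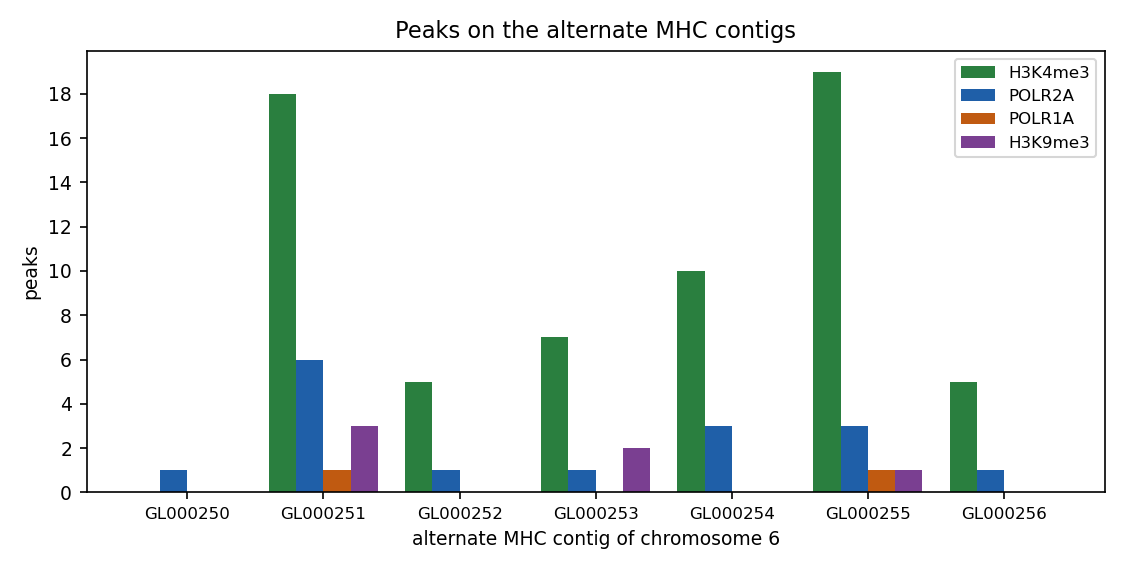
Number of peaks of each target (y axis) on the 7 alternate MHC contigs of chromosome 6 (x axis). H3K4me3 peaks are found on 6 contigs, from 5 to 19 each, and POLR2A peaks on all 7, from 1 to 6 each.

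The rest of the pathway outside the MHC carried peaks at or above the background. Of 35 genes for peptide trimming and folding, other proteasome parts, promoter factors and interferon receptors, 32 had H3K4me3 at an end (91.4%, against 54.6% of all genes), 26 POLR2A (74.3%, against 41.3%), 6 POLR1A (17.1%, against 11.2%) and 1 H3K9me3 (2.86%, against 2.7%). Their median fold enrichments were 12.2 for H3K4me3, 8.99 for POLR2A and 7.81 for POLR1A, against 11.05, 8.87 and 6.08 over all genes with the peak. The polymerase I and H3K9me3 shares rest on 6 genes and 1 gene.

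All 6 genes for trimming and folding had H3K4me3, and 5 had POLR2A. CANX, which encodes the folding chaperone calnexin, had the highest H3K4me3 (27.6, POLR2A 8.16), in peaks that also lay within 1 kb of CBY3. TAPBPL, a tapasin-related gene, had H3K4me3 of 14.2, POLR2A of 16.4 and POLR1A of 8.11, in peaks shared with the neighbour VAMP1. PDIA3, a disulfide isomerase of the loading complex, had H3K4me3 of 12.3 and POLR2A of 5.54, and CALR, encoding calreticulin, POLR2A of 17.8 and POLR1A of 8.73. ERAP1, an aminopeptidase that trims peptides, had H3K4me3 of 6.89 and POLR2A of 11.6. Its relative ERAP2 had H3K4me3 of 9.17 and, like B2M, no POLR2A peak at its ends.

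Among 7 other proteasome genes, 5 had H3K4me3 and the same 5 POLR2A. PSMB10, which encodes the remaining catalytic subunit of the immunoproteasome and lies on chromosome 16, had H3K4me3 of 10.7, POLR2A of 12.8 and a weak POLR1A peak of 4.30 (−log10 q 1.83). The subunits that PSMB8 and PSMB9 replace, PSMB5 and PSMB6, had H3K4me3 of 14.1 and 15.8 and POLR2A of 7.94 and 8.49, and PSMB7 had 15.3 and 6.30. PSME1 and PSME2, which encode the interferon-inducible proteasome activator, had no peak of any list. With the interferon factor gene IRF9 they lie within 30.4 kb on chromosome 14. No list had a peak there, the nearest H3K4me3 peaks were 568 and 264 kb away, and the row of genes without H3K4me3 ran from DHRS2 to NYNRIN with 35 genes, rank 11 of 3477. On alternate contigs of chromosome 14 the lists held 0 H3K4me3, 1 POLR2A, 1 POLR1A and 2 H3K9me3 peaks. Fix-patch contigs, a separate set in the assembly, were not searched for this stretch. Over the whole assembly they held 103 H3K4me3 and 101 POLR2A peaks. What lies behind this gap was not tested, and a missing peak there is not shown to be a missing mark.

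Of 15 factors that act at class I promoters, 14 had H3K4me3 and 12 POLR2A. NLRC5, the transactivator of class I genes, had the highest H3K4me3 (15.9) and the lowest POLR2A value of the 26 genes with a POLR2A peak, 3.50. RFX5, an X box factor, had 15.4 and 9.02. IRF2 (7.15) and RFXAP (11.5) had H3K4me3 without POLR2A, and IRF9 had neither. POLR1A was found at NFYA (7.51, with POLR2A at 19.1), RFXANK (6.37, POLR2A 15.3) and STAT2 (8.61, POLR2A 10.6). The NFYA peaks also lay within 1 kb of OARD1, and these RFXANK peaks within 1 kb of BORCS8 and BORCS8-MEF2B. STAT2, which encodes a transducer of interferon signals, had H3K4me3 of 14.5. STAT2 was the only gene of the 35 with H3K9me3 at an end (5.12), where all 4 lists had a peak, and the neighbour APOF lay within 1 kb of them as well.

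Interferon receptors and kinases all had H3K4me3, 7 of 7, with POLR2A at 4 and POLR1A at none. IFNGR1 had 16.8 in H3K4me3 and 5.996 in POLR2A, IFNAR1 15.7 and 13.6, and TYK2, a receptor-bound kinase, 14.5 and 8.96. IFNGR2 (11.2), IFNAR2 (13.9) and JAK1 (8.36) had H3K4me3 without POLR2A at their ends. Within the gene, however, JAK1 had 3 POLR2A peaks and IFNAR2 had 1, while IFNGR2 had none.

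Of 5 other class I and class I-like chains, MR1, which presents microbial metabolites and lies on chromosome 1, had H3K4me3 at 7.56 and no POLR2A at its ends, with 1 POLR2A peak within the gene. The other 4, HLA-F, HLA-G, MICA and MICB, lie in the MHC and had no peak. None of 12 class II genes had a peak at an end, among them CIITA and CD74, which lie outside the MHC, though CIITA had 1 H3K4me3 and 1 POLR2A peak within the gene. Of the intestinal epithelium markers, 7 of 9 had H3K4me3 and POLR2A, such as EPCAM (15.4 and 12.5), KRT8 (12.8 and 7.18), KRT18 (12.8 and 5.60) and CDX2 (10.8 and 6.36), while VIL1 and CLDN7 had neither. KRT8 and KRT18, both on chromosome 12, had the same H3K4me3 value, so the same peak may count for both. H3K4me3 was at 0 of 8 leukocyte markers, of which CD14 had a POLR2A peak of 2.75 shared with TMCO6, and at 1 of 6 fibroblast markers, COL1A1 (8.87).

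**Figure D5:**
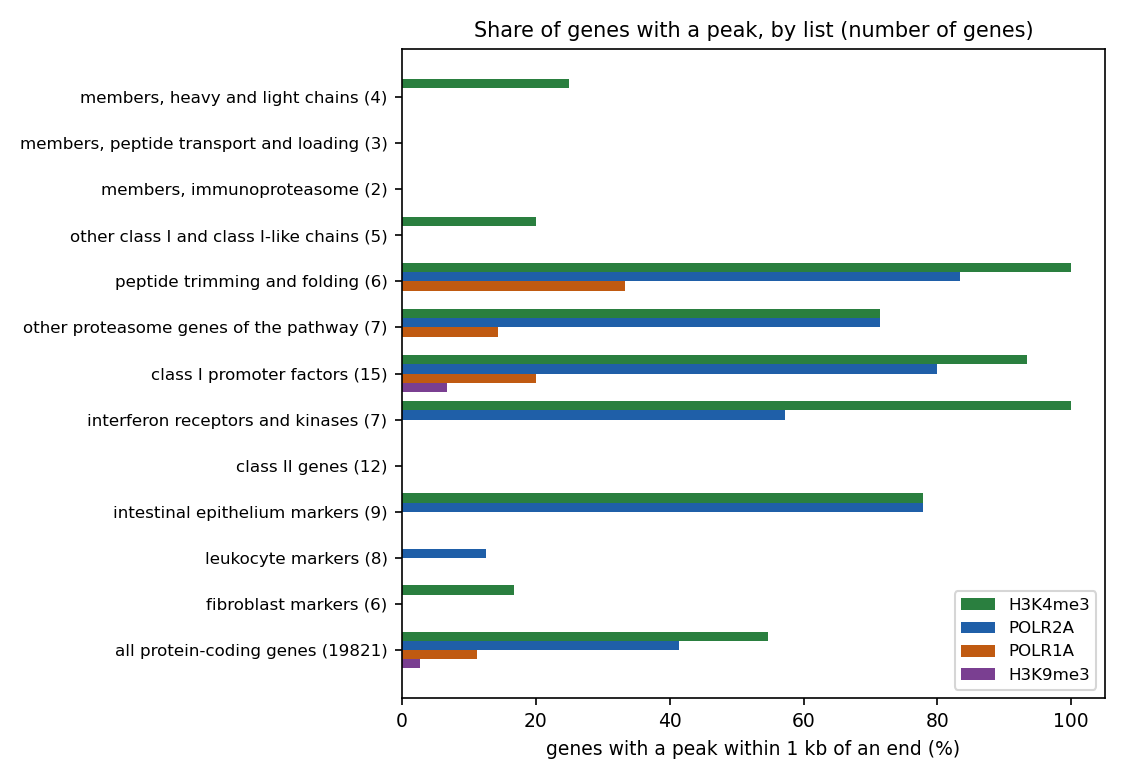
Share of genes with a peak within 1 kb of an end (x axis, percent) by gene list (number of genes in brackets) and target, with all protein-coding genes at the bottom. The member groups hold a single H3K4me3 bar, from B2M, while the 4 groups outside the MHC reach 71.4% to 100% for H3K4me3.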

How the data were processed

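CUT&Tag was done by the submitters on wild-type HCT116 cells with a commercial kit, from 100000 to 200000 cells a replicate on separate days, per the labels' protocols. Of the 10 samples used here 1 was for H3K4me3 and 3 were for each other target. The authors deposited 4 peak lists, whose peak names carry MACS2, per the file contents. That of H3K4me3 comes from 1 sample, while no replicate is named in the other 3. Their fold enrichment is a linear ratio, the −log10 p and −log10 q values and the integer score come from the caller, and all were used as deposited. The lowest −log10 q in each list was just above 1, that is a q of 0.1. For the caller's settings and control, pooling and multiply placed reads, the entry is: not given in the sources used here. STAR, SAMtools 1.6 and deepTools 3.1.1 appear without roles, with GRCh38, per the submitters' processing notes. Read depth is unknown from peak lists.

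Peaks were set against RefSeq genes of GRCh38.p14, of which those placed on scaffolds or patches were left out. Gene ends, not exons, were available. Coordinates are 1-based. The interval code was tested on simulated peaks. Shares carry exact (Clopper-Pearson) 95% intervals where given. Promoter windows were aligned with Biopython 1.88. Python 3.11.15 with pandas 2.3.3, numpy 2.4.6 and scipy 1.17.1 was used. The members, lists and rules were chosen with earlier results of these data known. Named genes were the members, the 3 genes of each list with the highest H3K4me3, those with POLR1A or H3K9me3, and up to 5 with H3K4me3 without POLR2A, and for B2M the 5 nearest in H3K4me3 among genes without POLR2A. Other genes were named after their values were seen. The rule for members with POLR2A named none. A few genes of the lists are not reported here.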

Additional observations from a re-analysis of the deposited data

Results flagged for a closer look

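Data outside the comparisons above also held peaks. The alternate MHC contigs of chromosome 6, which enter no count of genes, carried 64 H3K4me3 peaks, 16 POLR2A peaks, 2 POLR1A peaks and 6 H3K9me3 peaks. They are given because they lie outside the genes counted. Control samples were not used here and no expected number is known, so the counts are a description. On chromosome 6 itself the stretch from HLA-E to TAPBP held 2, 1, 0 and 0 peaks of the same targets.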

How the results depend on the processing

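Of 6 counts over the 9 genes, all 35 values under other settings equalled the main ones: 1 gene with H3K4me3 (B2M), 0 with POLR2A, POLR1A, H3K9me3 or POLR2A over H3K4me3, and 1 with H3K4me3 without POLR2A. The settings were windows of 500 bp and 2 kb, a −log10 q of at least 5, lists cut to 3812 peaks, summits only, the 5′ end only (8 genes with a start site), gene bodies included, and an overlap of at least 50% of the POLR2A peak, each applied to the counts it bears on. The counts of 0 had no room to move: no chromosome 6 member had a peak of any list nearer than 112 kb. For B2M the nearest POLR2A peak was 47.7 kb away, and POLR1A and H3K9me3 peaks were farther. The H3K4me3 peak of B2M ranked 4 by fold and 1926 by −log10 q (129), inside both cuts. It began 221 bp after the start site, with its summit at 604 bp, inside the windows used. The 35 equal values are thus not a test of stability. Cutting the H3K4me3 list to equal length lowered the share of all genes with H3K4me3 from 54.6% to 17.8%, and B2M stayed. No paired analysis was possible because the lists name no replicate, and leaving out replicates could not be run for the same reason. Counts of 0 say nothing of depth, which is unknown.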
